A study of Mus musculus with 15 samples.

Results

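Cholesterol and fatty acid synthesis was followed across mouse embryonic fibroblasts that lacked histone deacetylase 1 (Hdac1), had reduced histone deacetylase 2 (Hdac2), or both. The gene module was given as a list of gene names and held 31 genes: 18 enzymes of the sterol arm, 7 enzymes of the fatty acid arm, and 6 regulators and carriers. A probe set annotated to a single gene symbol was found for 30 of the 31, against 18193 symbols on the array as a whole, and the one with the highest mean over the arrays stood for its gene. Acat2 was not analysed here. All 30 lay above the low-intensity filter on all 15 arrays, among 13382 genes that passed it, so no member entered through a single group.

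RNA was measured on 15 Affymetrix mouse expression arrays, 3 per group, from primary male fibroblasts grown in serum. KO/Kd cells carried a floxed Hdac1 gene, a retrovirus for the tamoxifen-inducible recombinase Cre-ERT2, a retrovirus for a micro-RNA against Hdac2, and received 200 nM tamoxifen. KO cells differed from these in that the micro-RNA was scrambled. Kd cells carried the same viruses as KO/Kd cells and received ethanol, so that Hdac1 was kept. +/+ cells had intact, unfloxed Hdac1 and received 200 nM tamoxifen, and the viruses they carried are not given in the sources used here. Control cells were floxed, carried Cre-ERT2 and the scrambled micro-RNA, and received ethanol. Tamoxifen therefore went with deletion in every comparison of KO or KO/Kd cells against ethanol-treated cells, and these cannot be told apart there. KO/Kd against KO, and either of them against +/+, compared cells that all had tamoxifen. The +/+ cells also differed from both in the floxed allele and perhaps in virus. In comparisons with +/+ these cannot be told apart from the loss of Hdac1 or Hdac2. The labels leave out whether arrays of the same group came from different cultures, so the p-values rest on a spread between samples that may be technical.

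Cells make cholesterol from acetyl-CoA through mevalonate, farnesyl diphosphate, squalene and lanosterol, and fatty acids from the same acetyl-CoA through malonyl-CoA. Transcription of both arms is driven by the membrane-bound factors encoded by Srebf1 and Srebf2, which the escort protein Scap carries to the Golgi for cleavage when sterols are low, and which the Insig proteins hold back in the endoplasmic reticulum when sterols are high. Oxysterols at the same time switch on genes of sterol export through the nuclear receptor LXR. Fibroblasts run the whole route, and take up lipoprotein cholesterol from serum as well.

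Both targeted genes were low where the labels say so. Hdac1 had intensities of 105.8 to 203.0 on KO/Kd and 144.1 to 182.6 on KO arrays, against 3498.2 to 4806.5 on the other 9. Hdac2 lay at 1013.2 to 1030.9 on KO/Kd and 907.6 to 1027.6 on Kd arrays, against 6492.0 to 7701.9 on the rest; whether the Hdac1 probe set lies in the deleted part is not given. The fibroblast label was met, with 10 of 10 fibroblast markers measured and their summed intensity at 220980 to 236880 in KO/Kd and 193320 to 199940 in control cells, although S100a4, one of the 10, changed by -4.44 in KO/Kd against control. Array medians ran from 29.1 to 30.7 in KO/Kd, 24.97 to 28.60 in KO, 24.8 to 25.7 in Kd, 25.7 to 27.3 in +/+ and 24.1 to 25.1 in control cells. The scale of the table moved with the groups. The median log2 fold change over all genes was 0.16 for KO/Kd against control, and -0.02 after quantile normalization.

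Promoters of the members with the widest spans between group means are shown because most of these genes moved together. Each is the 250 bases before the transcription start, from RefSeq on GRCm38.p6, 5′ to 3′ on the gene's strand, with capitals for CCAAT on either strand, a motif of the factor NF-Y that works with the Srebf proteins. Lss lies at chr10:76531355-76531604 (+), Idi1 at chr13:8885356-8885605 (+), Nsdhl at chrX:72918271-72918520 (+), Insig1 at chr5:28071162-28071411 (+), Acss2 at chr2:155517793-155518042 (+), Fasn at chr11:120824548-120824797 (-) and Scap at chr9:110333038-110333287 (+). Hmgcs1, at chr13:119690101-119690350 (+), was added after its letters were seen, since its window holds TCACNCCAC, the core of the classic sterol regulatory element, also in capitals. Fdft1, Scd1 and Stard4 had no entry in the table.
Lss: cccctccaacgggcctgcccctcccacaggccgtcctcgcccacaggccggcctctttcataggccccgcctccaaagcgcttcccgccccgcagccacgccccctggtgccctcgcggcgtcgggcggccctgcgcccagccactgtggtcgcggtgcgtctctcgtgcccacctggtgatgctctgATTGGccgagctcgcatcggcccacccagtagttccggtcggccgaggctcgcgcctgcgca
Idi1: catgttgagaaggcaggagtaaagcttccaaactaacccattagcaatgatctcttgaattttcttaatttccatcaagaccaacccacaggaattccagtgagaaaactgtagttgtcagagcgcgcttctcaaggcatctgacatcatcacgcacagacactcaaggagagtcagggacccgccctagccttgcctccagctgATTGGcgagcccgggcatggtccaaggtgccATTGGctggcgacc
Nsdhl: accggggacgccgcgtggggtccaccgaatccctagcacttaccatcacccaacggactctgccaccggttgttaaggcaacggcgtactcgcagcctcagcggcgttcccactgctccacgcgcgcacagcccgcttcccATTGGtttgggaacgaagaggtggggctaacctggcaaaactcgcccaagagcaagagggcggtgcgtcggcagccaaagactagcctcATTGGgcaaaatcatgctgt
Hmgcs1: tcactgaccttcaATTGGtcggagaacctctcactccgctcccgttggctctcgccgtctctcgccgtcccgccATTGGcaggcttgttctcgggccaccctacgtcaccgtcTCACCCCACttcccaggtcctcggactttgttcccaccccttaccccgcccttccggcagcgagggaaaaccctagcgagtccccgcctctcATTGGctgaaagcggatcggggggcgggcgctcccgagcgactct
Insig1: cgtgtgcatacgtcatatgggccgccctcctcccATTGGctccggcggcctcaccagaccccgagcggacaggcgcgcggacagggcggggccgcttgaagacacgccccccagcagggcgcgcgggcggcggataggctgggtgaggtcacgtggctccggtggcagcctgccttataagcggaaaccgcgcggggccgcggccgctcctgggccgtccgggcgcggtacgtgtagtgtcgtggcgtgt
Acss2: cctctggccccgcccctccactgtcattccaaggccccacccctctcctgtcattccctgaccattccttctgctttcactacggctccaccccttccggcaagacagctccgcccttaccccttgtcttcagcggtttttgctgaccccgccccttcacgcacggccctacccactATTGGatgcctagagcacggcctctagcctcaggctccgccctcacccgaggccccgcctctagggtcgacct
Fasn: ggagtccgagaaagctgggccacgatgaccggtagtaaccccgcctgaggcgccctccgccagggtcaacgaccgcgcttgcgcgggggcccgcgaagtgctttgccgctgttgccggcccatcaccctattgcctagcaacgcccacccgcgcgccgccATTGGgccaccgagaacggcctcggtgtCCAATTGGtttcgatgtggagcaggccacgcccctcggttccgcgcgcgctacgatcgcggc
Scap: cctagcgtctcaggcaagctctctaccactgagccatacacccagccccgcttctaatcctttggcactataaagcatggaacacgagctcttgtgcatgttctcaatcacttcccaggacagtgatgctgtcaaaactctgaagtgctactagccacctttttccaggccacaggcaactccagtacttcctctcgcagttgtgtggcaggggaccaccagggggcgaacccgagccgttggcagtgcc

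Of the 30 measured members 24 had a promoter in the RefSeq table. Some genes had more than 1, and a gene was counted if any of its promoters matched. Scap had 2, of which the first is printed above. CCAAT was found for 14 of 14 genes of the sterol arm, 2 of 5 of the fatty acid arm (Acss2 and Fasn) and 4 of 5 of the regulators (Scap being without it), against 40.2% of the 10734 tested genes in the table. In the Lss promoter it lay 62 bases before the start and in the Nsdhl promoter 20 and 109 bases before. In the Fasn promoter 2 of its 3 matches overlap, as the same letters read on opposite strands. The GC box GGGCGG was found for 13 of 14 sterol arm genes against 61.8% of tested genes, CACGTG for 3 of 14 against 9.58%, and TCACNCCAC for 1 of 14 against 1.22%, with both strands searched each time. These are matches of letters and not bound sites, and a missing match says only that the letters are not in this window.

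On the chosen probe sets the whole sterol arm was lower in KO/Kd than in +/+ and KO cells, and most of it was lower than in control cells. All 17 measured enzymes were lower in KO/Kd than in +/+ cells by limma at an adjusted p below 0.05, against 23.5% of all genes lower and 38.3% higher in that comparison. The same count, 17 of 17 lower, was obtained for KO/Kd against KO, with 20.6% of all genes lower and 36.2% higher. Against control, 14 of 17 were lower and 1 was higher, with 19.3% of all genes lower and 46.2% higher. The median log2 fold change of the arm was -0.91 against +/+, -0.96 against KO and -0.66 against control, whereas the median over all genes was 0.09, 0.08 and 0.16. These comparisons share the KO/Kd arrays, so they are not independent of each other. The arm also stood above control in +/+ and KO cells, with medians of 0.44 and 0.32, so the falls against these 2 groups include that difference. After quantile normalization the counts were 17, 17 and 16 lower and 0, 0 and 0 higher, and the share of higher genes among all calls was 49.4%, 49.1% and 49.2%, against 62%, 63.7% and 70.5% before. In bulk RNA, fewer cells with a transcript and less of it per cell cannot be told apart.

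Lss, which closes squalene epoxide into lanosterol, the first sterol ring, changed most on its chosen probe set. Its intensity was 144.1, 329.5 and 282.8 in KO/Kd cells, 1586.0, 1813.5 and 2197.9 in KO, 1203.5, 1165.5 and 1028.6 in Kd, 2294.3, 2082.5 and 2193.8 in +/+ and 1558.5, 1489.1 and 1443.4 in control cells. On this probe set every KO/Kd array was far below every other array. The log2 fold change was -3.11 ± 0.20 against +/+ (SE, limma adjusted p = 9.07e-10), -2.87 ± 0.20 against KO and -2.57 ± 0.20 against control. A second Lss probe set gave -1.55 against +/+ and -1.1 against control. Its means were 213.5 in KO/Kd, 670.9 in KO, 268.6 in Kd, 650.6 in +/+ and 466.8 in control cells. There KO/Kd lay close to Kd, so the sizes for Lss depend on the probe set. A dim one, with a mean of 25.4 in KO/Kd cells, gave 0.10 against control without a call.

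Idi1 isomerises isopentenyl diphosphate, the building block of all isoprenoids. It measured 1830.4, 2531.4 and 2106.5 in KO/Kd cells, 8296.0, 9956.7 and 9963.6 in KO, 4887.9, 4764.7 and 5054.9 in Kd, 10705.0, 10039.3 and 9606.5 in +/+ and 6584.8, 7410.9 and 6826.4 in control cells. The groups stood in a clear order, with KO/Kd lowest, then Kd, then control, and KO and +/+ overlapping at the top. The change was -2.23 ± 0.10 against +/+ (adjusted p = 1.95e-11) and -1.69 ± 0.10 against control (adjusted p = 4.64e-10).

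Fdft1, squalene synthase, commits farnesyl diphosphate to sterols. It measured 2424.6, 3246.2 and 2428.3 in KO/Kd cells, 7230.1, 8562.0 and 9432.0 in KO, 5760.7, 5538.7 and 5314.4 in Kd, 8791.7, 8575.7 and 7701.8 in +/+ and 6973.3, 6838.6 and 6245.5 in control cells. Again no KO/Kd array reached the lowest array of another group, and KO overlapped with +/+ above the control arrays. Fdft1 changed by -1.64 ± 0.11 against +/+ (adjusted p = 2.45e-09) and by -1.32 ± 0.11 against control (adjusted p = 2.71e-08).

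Nsdhl removes a methyl group from the sterol ring. It measured 1431.8, 1655.7 and 1469.6 in KO/Kd cells, 4082.0, 4268.9 and 4818.3 in KO, 2534.2, 2369.6 and 2152.1 in Kd, 4412.5, 4444.2 and 4437.8 in +/+ and 2982.1, 2986.9 and 2901.9 in control cells. KO/Kd, Kd and control arrays formed 3 separate levels, and KO and +/+ shared the highest. The change was -1.54 ± 0.08 against +/+ (adjusted p = 7.6e-11) and -0.96 ± 0.08 against control (adjusted p = 1.86e-08).

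**Figure D1:**
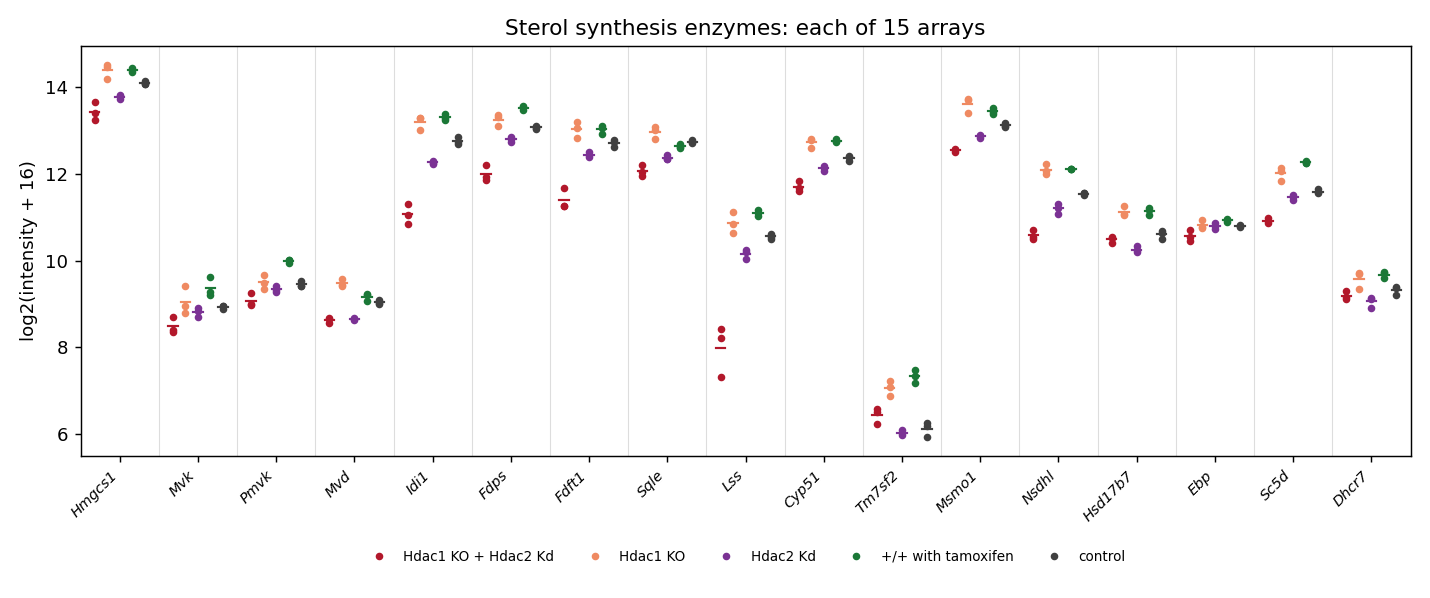
Each point is 1 array and each bar a group mean of log2(intensity + 16) for the 17 measured sterol enzymes, with 5 groups of 3 arrays per gene from KO/Kd at the left to control at the right. The KO/Kd points lie under all 12 others for 13 of the 17 genes, and +/+ or KO points are the highest.

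Across the sterol arm, all 3 KO/Kd arrays lay below the other 12 arrays for 13 of 17 enzymes and above them for 0, against 14.1% and 30.4% of all genes. The exceptions were Mvd, Tm7sf2, Hsd17b7 and Dhcr7. The mean of KO/Kd was the lowest of the 5 groups for 14 enzymes and that of Kd for the other 3, and the highest mean was in +/+ for 13 and in KO for 4. On the mevalonate route, the entry enzyme Hmgcs1 averaged 11120 ± 1589 in KO/Kd and 21529 ± 760.4 in +/+ cells (SD, n = 3), a log2 change of -0.96. The kinases Mvk and Pmvk and the decarboxylase Mvd changed by -0.88, -0.91 and -0.54 against +/+, and Fdps, which makes farnesyl diphosphate, by -1.54. Against control the same 5 genes changed by -0.67, -0.45, -0.37, -0.41 and -1.08, and all passed the threshold.

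Past squalene, the epoxidase Sqle changed by -0.57 against +/+ and -0.68 against control. The lanosterol demethylase Cyp51 changed by -1.06 and -0.66, and the methyl oxidase Msmo1 by -0.90 and -0.58. Ebp, the sterol isomerase, changed by -0.36 against +/+ and -0.23 against control. Hsd17b7, a sterone reductase, and Dhcr7, which completes cholesterol, fell by 0.64 and 0.49 against +/+ but did not pass against control, at -0.11 (adjusted p = 0.23) and -0.13 (adjusted p = 0.247). Other Hsd17b7 probe sets gave -0.29 (limma adjusted p = 0.0437) and -0.02 (0.918) against control in a fit of 25213 probe sets. Whether Hsd17b7 passes there depends on the probe set.

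Tm7sf2, a sterol reductase measured at low intensity, was the 1 member of the arm called higher in KO/Kd than in control cells. It measured 75.3, 58.9 and 80.5 in KO/Kd cells, 101.3, 135.0 and 119.9 in KO, 49.4, 52.6 and 47.5 in Kd, 162.5, 147.5 and 129.7 in +/+ and 57.0, 60.2 and 45.1 in control cells. The lowest KO/Kd array lay within the control arrays. The difference was 0.32 ± 0.12 against control (adjusted p = 0.0228), but -0.032 after quantile normalization, and the call was lost without control replicate 3, KO/Kd replicate 1 or KO/Kd replicate 3. Against +/+ the difference was -0.90 ± 0.12.

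Sc5d, a sterol desaturase, had 3 probe sets that did not move alike. The one with the highest mean, at 1924 in KO/Kd and 3074 in control cells, gave -0.67 against control and -1.35 against +/+. A second, with means of 1021 and 661.0, gave 0.61 against control (adjusted p = 3.85e-05 in a fit of 25213 probe sets) and 0.21 against +/+, which was not called (adjusted p = 0.0785). Against KO it gave -0.09 without a call (adjusted p = 0.471). The third, dimmer, with means of 84.3 and 64.3, gave 0.32 against control (adjusted p = 0.00235) and -0.27 against +/+. The mean of the 3 was 0.087 above control, so the direction for Sc5d against control rests on the probe set. The counts of the arm use its chosen probe set, where Sc5d was lower. Of the 30 members, 19 had more than 1 probe set past the filter, and these had 1 sign in KO/Kd against control for 14 members and both signs for 5 (Acly, Elovl6, Lss, Sc5d and Scd1).

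**Figure D2:**
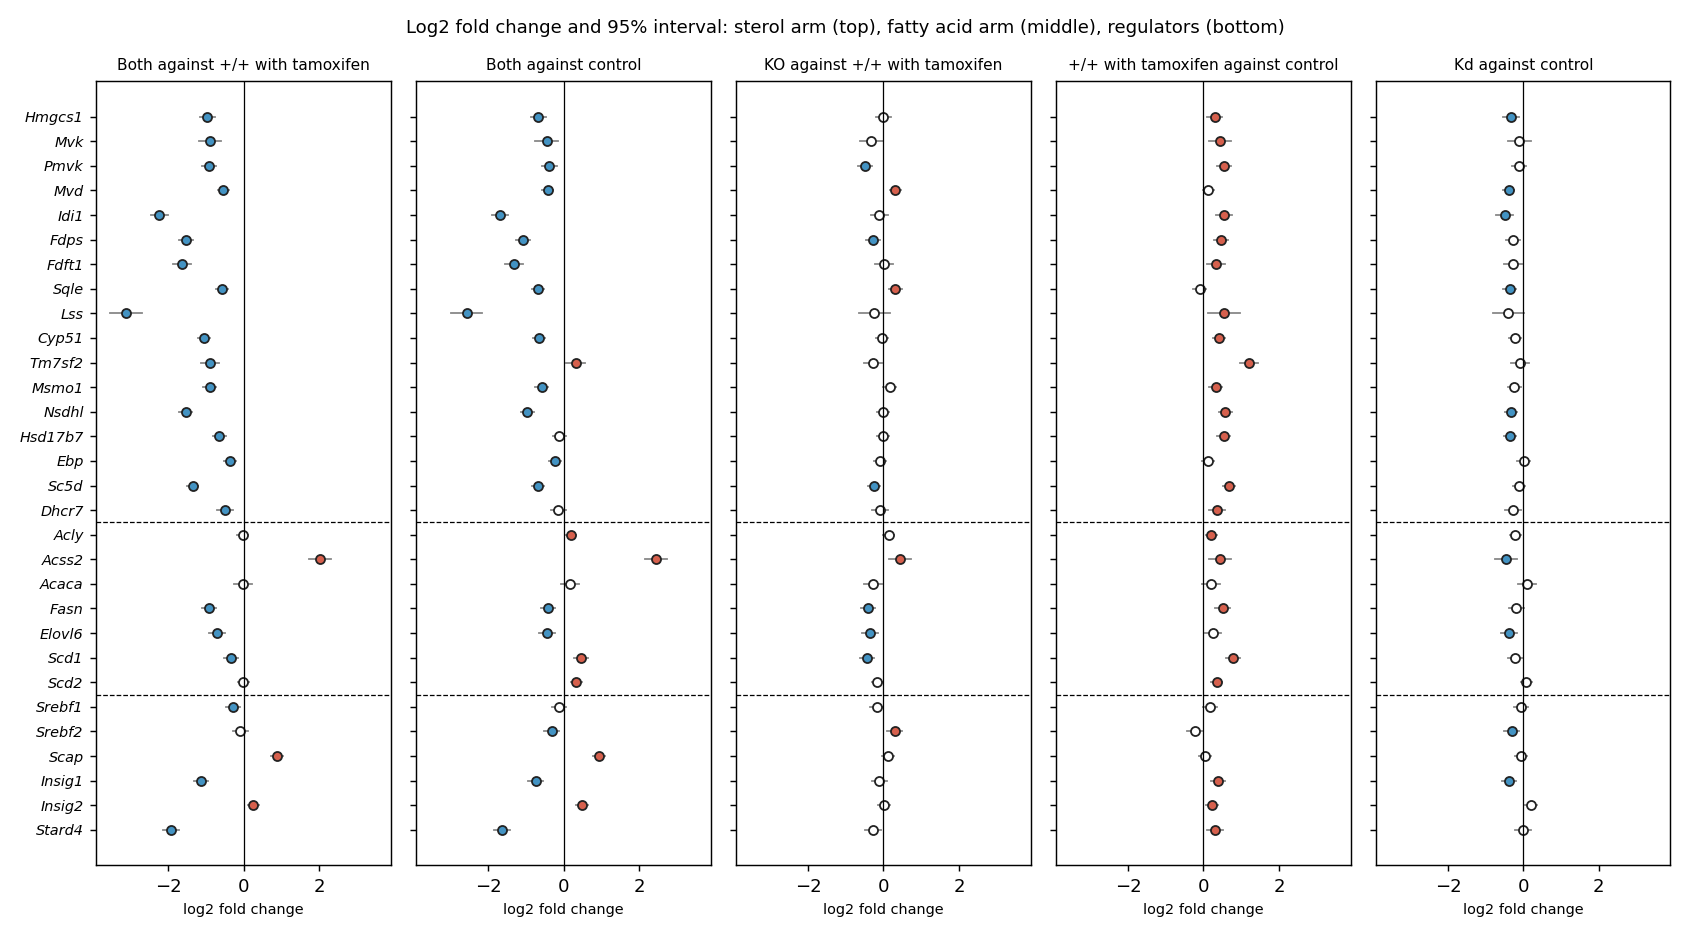
Points are log2 fold changes with 95% intervals for the 30 measured members in 5 comparisons, blue where lower and red where higher at an adjusted p below 0.05, open where not called. Dashed lines part the sterol arm, the fatty acid arm and the regulators; the sterol arm lies left of 0 for KO/Kd against +/+ for all 17 genes, from -3.11 to -0.36.

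The knockdown alone lowered some of these enzymes. In Kd against control 6 of 17 sterol enzymes were lower and 0 higher, against 3.04% of all genes lower and 7.55% higher. These were Idi1 (-0.50 ± 0.10, adjusted p = 0.00443), Mvd (-0.39), Sqle (-0.37), Hsd17b7 (-0.35), Nsdhl (-0.33) and Hmgcs1 (-0.32). The arm's median was -0.27, with 0.04 over all genes, and the count was 13 after quantile normalization, where 53.3% of all calls were higher genes, against 71.3% before. Without KO replicate 1, which enters through the shared spread, the count was 10. Lss, at -0.40 ± 0.20 on its chosen probe set, did not pass (adjusted p = 0.243). Its second probe set averaged 268.6 ± 19.3 in Kd and 466.8 ± 33.5 in control cells (SD), with no test given here. Whether the knockdown alone lowered Lss therefore depends on the probe set.

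In KO against +/+ cells, both with tamoxifen, 2 of 17 were higher and 3 lower, against 12.8% and 11.3% of all genes. Mvd (0.32) and Sqle (0.32) were the higher ones, and Pmvk (-0.49), Fdps (-0.28) and Sc5d (-0.26) the lower ones. Idi1, Fdft1, Nsdhl and Hmgcs1 differed by -0.11, 0.00, -0.02 and 0.00 with no call. The 95% interval of the Lss difference ran from -0.66 to 0.18. Without +/+ replicate 2 or without KO replicate 1, 1 was lower.

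KO and +/+ cells, which had tamoxifen, both had more of the sterol arm's transcripts than ethanol-treated control cells. In KO against control 10 of 17 were higher and 0 lower, against 19.6% and 4.66% of all genes, with a median of 0.32. In +/+ against control 14 of 17 were higher and 0 lower, against 21.5% and 6.93%, with a median of 0.44; the median over all genes was 0.08 in both. Tm7sf2 (0.94 in KO and 1.21 in +/+), Nsdhl (0.56 and 0.58) and Hsd17b7 (0.52 and 0.53) were among the highest in both, and Sqle was called in neither (0.21 and -0.10). Both comparisons use the same 3 control arrays, and +/+ cells differ from control in genotype and perhaps virus as well as in tamoxifen, so the agent cannot be told apart from these. After quantile normalization 8 and 11 were higher, and 0 and 1 lower, while higher genes were 49.2% of all calls in each comparison, against 80.8% and 75.6% before. Without +/+ replicate 1 or without control replicate 3, the count in +/+ against control was 9.

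In KO/Kd against Kd, deletion with tamoxifen in cells that all had the knockdown, 13 of 17 were lower and 2 higher, against 20.5% and 42.9% of all genes. Idi1 fell by 1.19 and Lss by 2.17 on its chosen probe set. Tm7sf2 (0.40) and Hsd17b7 (0.24) were higher, Hsd17b7 not without Kd replicate 3 or KO/Kd replicate 1. After quantile normalization 14 were lower and 0 higher, and higher genes were 49% of all calls, against 67.7% before. The difference between the deletion effect of knockdown cells and that of scrambled cells was itself tested as an interaction. It was negative at an adjusted p below 0.05 for 12 of 17 sterol enzymes and positive for 0, against 17.2% and 25.8% of all genes. On the chosen probe sets it was largest for Lss (-2.47 ± 0.28, adjusted p = 2.71e-06), Idi1 (-1.63 ± 0.15), Fdft1 (-1.37 ± 0.16) and Nsdhl (-1.19 ± 0.11). For Lss the size rests on the probe set. The second one averaged 213.5 in KO/Kd, 268.6 in Kd, 670.9 in KO and 466.8 in control cells. Mvk, Pmvk, Hsd17b7, Ebp and Dhcr7 did not pass. After quantile normalization 16 passed, and positive genes were 48.3% of all calls, against 60.1% before.

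The fatty acid arm moved in both directions. In KO/Kd against +/+ 1 of its 7 enzymes was higher and 3 lower, beside 38.3% and 23.5% of all genes, with a median of -0.02. Against control 4 were higher and 2 lower, beside 46.2% and 19.3%, with a median of 0.19. In KO/Kd against KO 1 was higher and 2 lower, beside 36.2% and 20.6% of all genes, and against Kd 4 and 1, beside 42.9% and 20.5%. Nothing particular to the arm is read from these counts of 7 enzymes. Whether the arms differ was not tested.

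Acss2, which makes acetyl-CoA from acetate in the cytosol and nucleus, moved furthest and upward. It measured 534.6, 589.1 and 571.4 in KO/Kd cells, 155.1, 192.2 and 181.5 in KO, 82.7, 51.9 and 52.2 in Kd, 154.9, 118.8 and 109.1 in +/+ and 95.9, 81.2 and 91.3 in control cells. All KO/Kd arrays were above all others, and KO arrays were above all control and Kd arrays, with the lowest KO and the highest +/+ array nearly touching. The log2 fold change was 2.03 ± 0.14 against +/+ (adjusted p = 2e-09), 2.46 ± 0.14 against control (adjusted p = 1.55e-10) and 2.91 ± 0.14 against Kd, and a second probe set gave 2.45 against control. The interaction was 2.05 ± 0.19 (adjusted p = 4.29e-07).

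Fasn, the multi-enzyme that builds palmitate, went the other way. It measured 2119.0, 2008.4 and 1843.2 in KO/Kd cells, 2656.5, 2686.5 and 3149.5 in KO, 2365.8, 2402.4 and 2238.5 in Kd, 3526.3, 4065.6 and 3753.1 in +/+ and 2375.3, 2897.2 and 2720.5 in control cells. KO/Kd was the lowest group without overlap and +/+ the highest without overlap. The change was -0.92 ± 0.09 against +/+ (adjusted p = 1.67e-07) and -0.42 ± 0.09 against control (adjusted p = 0.000678).

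Scd1 introduces the double bond of oleate. It measured 2778.8, 3238.9 and 2805.1 in KO/Kd cells, 2389.3, 2796.4 and 2956.6 in KO, 1902.2, 1727.8 and 1866.5 in Kd, 3908.3, 3830.7 and 3356.4 in +/+ and 2149.2, 2137.5 and 2082.7 in control cells. KO/Kd and KO overlapped between the high +/+ and the low Kd and control arrays. The difference was -0.33 ± 0.09 against +/+ and 0.46 ± 0.09 against control. The second probe set, with means of 308.3 in KO/Kd and 456.3 in control cells, gave -0.55 against control (adjusted p = 0.000534), and the mean of both gave -0.043, so the sign against control depends on the probe set.

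The other 4 enzymes had smaller spans. The elongase Elovl6 averaged 1663 ± 233 in KO/Kd, 2720 ± 205 in +/+ and 2258 ± 45.5 in control cells (SD, n = 3), which were changes of -0.71 and -0.45. Acly, which makes cytosolic acetyl-CoA from citrate, differed by -0.02 from +/+ and by 0.19 from control (adjusted p = 0.0248), which was -0.0077 after quantile normalization. Other bright Acly probe sets gave 0.0076 and -0.0071 against control without a call, and a dim one 0.22 (adjusted p = 0.0201). The first of these gave -0.31 against +/+ (adjusted p = 0.0066 in a fit of 25213 probe sets). Whether Acly differs from either group therefore depends on the probe set. The chosen probe set of the carboxylase Acaca was called in no comparison, and a dimmer second one was higher in KO/Kd than in control cells (0.30, adjusted p = 0.0273). Scd2, a desaturase like Scd1, averaged 20630 ± 1322 in KO/Kd, 20714 ± 584 in +/+ and 16271 ± 333 in control cells. In KO against +/+ Acss2 was higher (0.43) and Scd1 (-0.45), Fasn (-0.42) and Elovl6 (-0.35) lower, beside 12.8% of all genes higher and 11.3% lower. In +/+ against control 5 of 7 were higher, led by Scd1 (0.79) and Fasn (0.51), and 0 lower, beside 21.5% and 6.93% of all genes. In KO against control 3 were higher and 0 lower, beside 19.6% and 4.66%. In Kd against control Acss2 (-0.45) and Elovl6 (-0.39) were lower and 0 higher, beside 3.04% of all genes lower and 7.55% higher. These small counts turned on single arrays. The count of 5 in +/+ against control was 3 without +/+ replicate 1, +/+ replicate 2, control replicate 2 or control replicate 3. The call of Acss2 in KO against +/+ was lost without any 1 of the +/+ arrays, KO replicate 2, KO replicate 3 or control replicate 3. Without KO replicate 3, 5 were lower there. Neither enzyme was called in Kd against control without control replicate 1, control replicate 2, Kd replicate 2 or Kd replicate 3. In KO/Kd against KO 3 were higher without KO replicate 3, and 2 without +/+ replicate 2, KO/Kd replicate 1 or KO/Kd replicate 3. In KO/Kd against Kd the 1 lower enzyme, Fasn, was lost without Kd replicate 1, Kd replicate 2, KO/Kd replicate 2 or KO/Kd replicate 3.

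**Figure D3:**
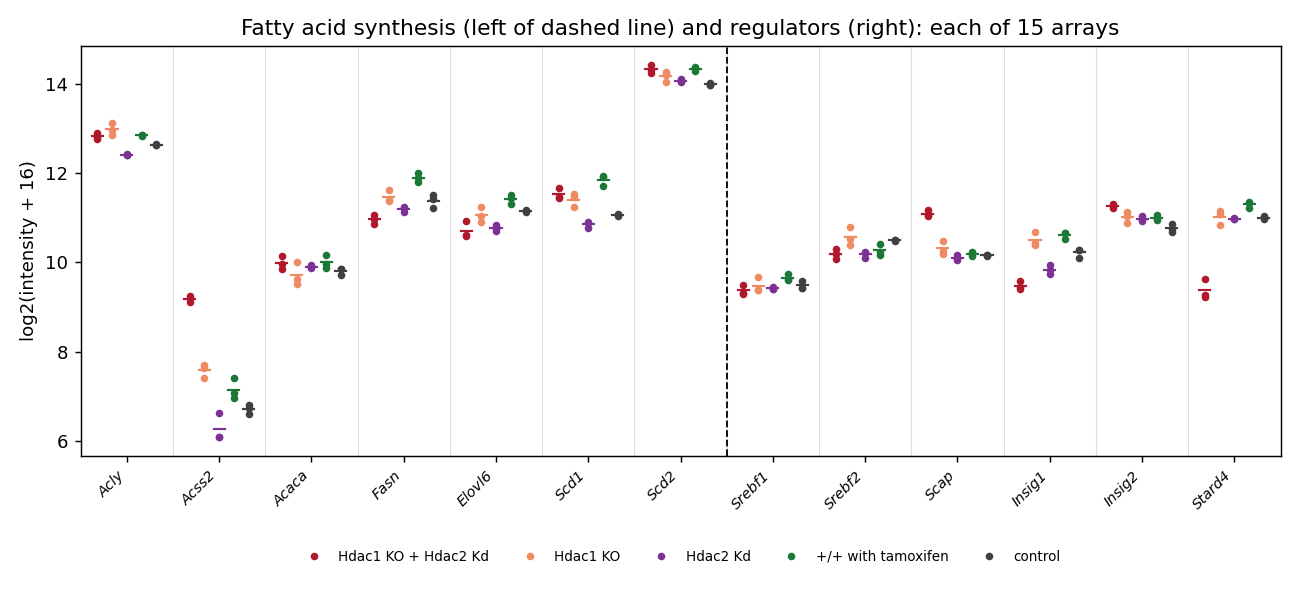
Each point is 1 array and each bar a group mean of log2(intensity + 16), for the 7 fatty acid enzymes left of the dashed line and the 6 regulators right of it. KO/Kd points stand apart upward for Acss2, Scap and Insig2 and downward for Fasn, Insig1 and Stard4. Of all genes, 30.4% stood apart upward and 14.1% downward, and nothing particular to these members is read from the counts.

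Among the regulators, Srebf1 and Srebf2 had the smallest spans between their highest and lowest group means on the chosen probe sets, 0.28 and 0.38 on the log2 scale. Srebf1 averaged 648.2 ± 53.1 in KO/Kd, 792.0 ± 38.4 in +/+ and 701.3 ± 44.4 in control cells, a change of -0.28 (adjusted p = 0.0083) and of -0.11 without a call. Srebf2, the factor of the sterol arm, averaged 1149 ± 87.3 in KO/Kd, 1220 ± 108 in +/+ and 1427 ± 22.2 in control cells, a change of -0.08 (adjusted p = 0.465) and of -0.31 (adjusted p = 0.00856). Its second probe set gave -0.92 against +/+ and -0.88 against control, both called, with a wider span, from 737.1 in KO/Kd to 1401 in +/+ cells. On the chosen probe set Kd cells, at 1149 ± 64.6, were also lower than control for Srebf2 (-0.31). The second averaged 1325 ± 104 in Kd and 1359 ± 8.06 in control cells, so that difference depends on the probe set. Cleavage and nuclear entry of these factors are not measured by arrays.

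Scap was higher in KO/Kd cells than in each of the other groups. It measured 2301.8, 2108.0 and 2088.8 in KO/Kd cells, 1159.4, 1204.9 and 1417.3 in KO, 1132.9, 1051.8 and 1072.8 in Kd, 1163.0, 1112.5 and 1194.4 in +/+ and 1132.5, 1140.4 and 1115.6 in control cells. The 12 other arrays lay together, with 1 KO array somewhat higher. The change was 0.90 ± 0.08 against +/+ (adjusted p = 2.75e-08) and 0.93 ± 0.08 against control (adjusted p = 1.44e-08).

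Insig1, itself a target of the Srebf factors, fell with the enzymes. It measured 746.5, 663.5 and 685.2 in KO/Kd cells, 1378.2, 1627.6 and 1324.0 in KO, 889.1, 835.8 and 971.1 in Kd, 1607.6, 1453.2 and 1593.0 in +/+ and 1231.9, 1233.7 and 1076.5 in control cells. KO/Kd, Kd and control arrays did not overlap and stood in that order from low to high, with KO and +/+ overlapping above them. The change was -1.13 ± 0.09 against +/+ (adjusted p = 1.26e-08) and -0.74 ± 0.09 against control, and Kd alone was lower by -0.39 ± 0.09 (adjusted p = 0.00927). Insig2, its relative, was higher in KO/Kd than in +/+ (0.26) and control cells (0.50). Its 3 probe sets were all called higher than in control cells, from 0.34 to 0.53. Against +/+ the other probe sets gave 0.30, which was called, and 0.13, which was not (adjusted p = 0.271 in a fit of 25213 probe sets). The call against +/+ therefore depends on the probe set.

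Stard4, a cytosolic carrier of cholesterol, was lower in KO/Kd cells than in each of the other groups. It measured 584.4, 780.0 and 597.1 in KO/Kd cells, 1819.8, 2148.7 and 2255.7 in KO, 1992.8, 2010.5 and 1998.0 in Kd, 2619.1, 2354.1 and 2559.6 in +/+ and 2026.3, 2074.5 and 1981.6 in control cells. KO, Kd and control arrays lay together, +/+ arrays above them and KO/Kd arrays far below. The change was -1.93 ± 0.10 against +/+ (adjusted p = 8.14e-11), -1.62 ± 0.10 against control (adjusted p = 5.15e-10) and -1.60 ± 0.10 against Kd, with an interaction of -1.63 ± 0.14, and its 3 probe sets gave -1.25 to -1.62 against control. Kd against control, at -0.02, was not called (adjusted p = 0.947), nor was KO against control at 0.03.

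Other genes of sterol handling were taken from lists of 118 neighbours and cell type markers, of which 88 were tested. Of all genes tested, 38.3% were higher and 23.5% lower in KO/Kd than in +/+ cells, and 46.2% and 19.3% than in control cells, and the counts of these short lists are given beside those shares as descriptions. Of 9 further genes of sterol and isoprenoid synthesis, 4 were lower and 1 higher in KO/Kd than in +/+ cells, and likewise against control, where 19.3% of all genes were lower. Erg28, a scaffold of the sterol demethylating complex, measured 559.6, 599.7 and 589.5 in KO/Kd cells, against 1806.2, 1771.7 and 1693.2 in +/+ and 1604.0, 1589.5 and 1482.9 in control cells, a change of -1.57 and -1.39. Lbr, a sterol reductase of the nuclear membrane, changed by -1.49 and -1.51, and Aacs, which activates acetoacetate, by -0.97 and -0.52. Ggps1, which diverts farnesyl diphosphate to geranylgeranyl diphosphate, was higher by 0.80 and 0.93.

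Abca1, the cholesterol efflux pump, measured 2200.2, 2254.2 and 1772.6 in KO/Kd cells, 76.8, 68.2 and 101.2 in KO, 165.3, 80.9 and 80.4 in Kd, 37.8, 40.9 and 28.8 in +/+ and 76.8, 50.3 and 45.5 in control cells. Apoe, the apolipoprotein that accepts exported cholesterol, measured 551.5, 396.5 and 536.6 in KO/Kd cells, against at most 15 on the other 12 arrays. Abca1 changed by 4.85 ± 0.21 against control (SE, limma adjusted p = 9.32e-12), on a scale that understates the change of dim genes. The 40th percentiles of the arrays were 18.8 to 22.5, so Apoe passed the filter only through the KO/Kd arrays, had to differ, and is given here by its values with no fold change or test.

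Mylip, which marks lipoprotein receptors for destruction, measured 1880.2, 2173.5 and 2136.8 in KO/Kd cells, 939.7, 1002.6 and 980.7 in KO, 806.3, 756.7 and 682.5 in Kd, 422.6, 443.7 and 443.4 in +/+ and 948.8, 854.1 and 824.9 in control cells. KO/Kd arrays were highest and +/+ arrays lowest, both without overlap. Of the 6 tested genes on the list of LXR and efflux, 4 were higher and 0 lower in KO/Kd against +/+, and 5 higher and 1 lower against control, Rxra at -0.45 being the lower one. Apoe is among the higher ones in both counts and had to be, since it passed the filter only through the KO/Kd arrays. Of all genes 38.3% were higher against +/+ and 46.2% against control, and nothing particular to the list is read from these counts.

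Of 9 genes of sterol uptake and transport, 6 were higher and 3 lower in KO/Kd than in control cells, beside 46.2% and 19.3% of all genes, and 4 higher and 3 lower than in +/+ cells, beside 38.3% and 23.5%. Higher against control were Lipa (1.35), the lysosomal lipase that frees cholesterol, and its lysosomal exporters Npc1 (1.2) and Npc2 (0.65), and lower was Tmem97 (-0.87), a sterol-regulated membrane protein that binds Npc1. Of 13 genes that process or assist the Srebf factors, 5 were higher and 3 lower than in control cells, near the shares of all genes. Erlin1, a membrane scaffold in sterol-dependent protein degradation, was the furthest, at 330.2, 450.4 and 347.1 in KO/Kd cells, against 1416.3, 1452.5 and 1314.0 in control cells (-1.86 ± 0.10). The NF-Y subunits Nfyb and Nfyc changed by 0.51 and -0.55.

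Of 15 further genes of fatty acid and NADPH supply, 8 were higher and 3 lower in KO/Kd than in control cells, near the shares of all genes, with the citrate carrier Slc25a1 (1.02) and the NADPH source Idh1 (0.96) higher and Mid1ip1 (-1.22), an activator of the carboxylase, lower. Of 9 genes of acyl-CoA and glycerolipid synthesis 4 were higher and 3 lower than in control cells, beside 46.2% and 19.3% of all genes. Lpin1, a phosphatidate phosphatase, measured 1314.8, 1323.7 and 1146.7 in KO/Kd cells, against 405.1, 398.3 and 349.4 in control cells, and was lower in Kd than in control (-0.61 ± 0.10).

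**Figure D4:**
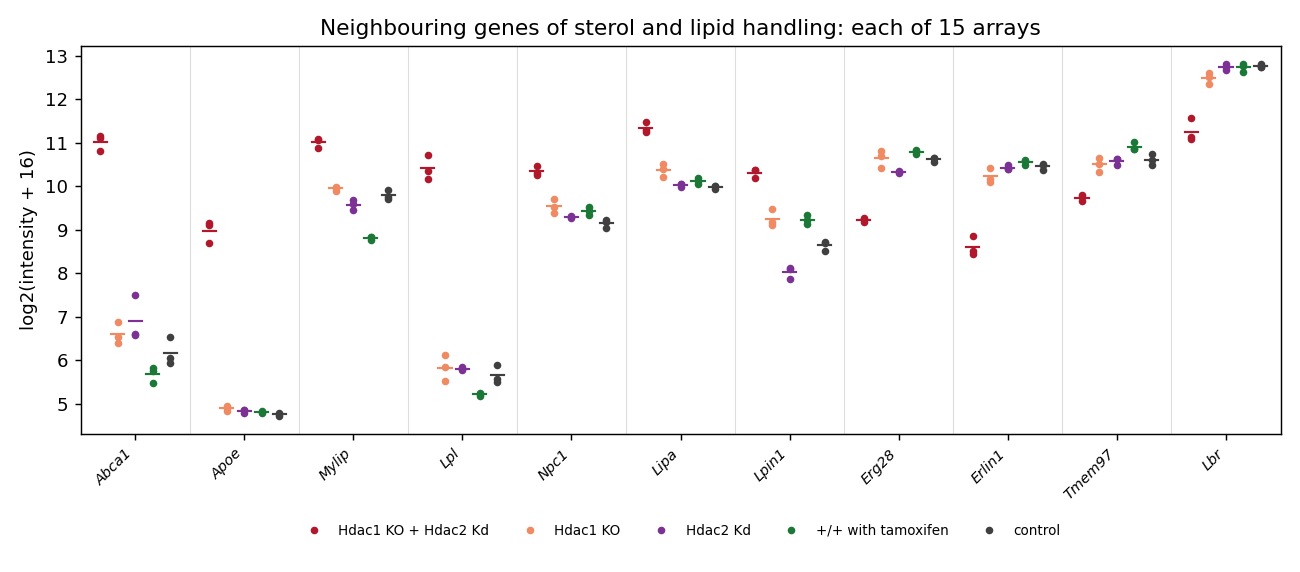
Each point is 1 array and each bar a group mean of log2(intensity + 16) for 11 neighbouring genes of sterol and lipid handling. KO/Kd points are separate from all others for each gene, upward for Abca1, Apoe, Mylip, Lpl, Npc1, Lipa and Lpin1 and downward for Erg28, Erlin1, Tmem97 and Lbr. The genes were picked among those with large differences in KO/Kd cells, so this separation follows from the choice. Of all genes, 30.4% had all KO/Kd arrays above the other 12 and 14.1% below.

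Apoe and Abca1 are also high in macrophages, and lipid genes in adipocytes, so markers of other cells are given beside these values. The 7 macrophage markers all had a probe set and 4 passed the filter, and their summed intensity was 194.3 to 268.9 in KO/Kd, 232.8 to 327.9 in KO, 186.4 to 190.8 in Kd, 217.1 to 268.4 in +/+ and 180.2 to 212.8 in control cells. Of these 4, Cd68 was higher in KO/Kd than in control cells, at 46.6, 83.7 and 41.3 against 24.4, 32.7 and 34.3 (0.62, adjusted p = 0.00472), and the other 3 were not called in that comparison. The leukocyte gene Ptprc, at 12.5 to 14.0 in KO/Kd and 12.3 to 13.6 in control cells, did not pass. The sum of the 8 measured adipocyte markers was 2291 to 2853 in KO/Kd cells, 943.0 to 1328 in KO, 1247 to 1392 in Kd, 1248 to 1408 in +/+ and 1180 to 1273 in control cells. Within it Lpl, a lipoprotein lipase, lay at 1143.6 to 1674.0 in KO/Kd and 29.3 to 43.7 in control cells, and Fabp4, a fatty acid carrier, at 1008.8 to 1050.4 and 720.8 to 823.9 in the same groups. Pparg, the adipocyte regulator, was lower in KO/Kd than in control cells (-2.40), and Adipoq, Lep and Cidec did not pass the filter. Cebpa, at 18.7 to 32.8 in KO/Kd and 31.3 to 43.2 in control cells, and Retn, at 18.8 to 23.1 and 28.5 to 36.8, were dim and also lower. Of the 5 adipocyte markers tested, 2 were thus higher and 3 lower than in control cells, beside 46.2% and 19.3% of all genes. The endothelial sum was 122.9 to 162.6 in KO/Kd and 67.4 to 75.8 in control cells, with Kdr at 53.1 to 94.3 in KO/Kd and 12.5 to 20.2 in control cells. The hepatocyte sum was 185.9 to 255.4 in KO/Kd, 278.9 to 326.9 in +/+ and 111.1 to 124.9 in control cells, with Afp moving, and the epithelial sum 127.5 to 135.0 and 133.4 to 150.2 in KO/Kd and control cells. The part of other cell types in the lipid genes was not tested.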

How the data were processed

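RNA from 5 groups of 3 samples was labelled by in vitro transcription and hybridised to 15 arrays, per the labels' protocols. Each of 45037 probe sets had 1 deposited intensity per array, on a linear scale. The authors' summarising and scaling steps are not given in the sources used. The array annotation gave 1 symbol to 34945 probe sets, several to 932 and none to 9160, and RefSeq changed 0 symbols.

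From the deposited intensities log2(intensity + 16) was computed, so fold changes of dim genes are understated. A probe set was kept above its array's 40th percentile (18.8 to 22.5) on at least 3 arrays, and each gene was represented by its highest-mean probe set, leaving 13382 genes. All 15 arrays entered 1 limma model (version 3.58.1, R 4.3.3) with a mean for each group and 9 comparisons, with Benjamini-Hochberg adjustment per comparison over all genes and a threshold of 0.05. Every adjusted p is limma's. Probe sets of members were also fitted on the table of 25213 probe sets, which was chosen after seeing the data. No pair of arrays held identical values. Precision is limited by the number of arrays, with a median standard error of 0.0868 for KO/Kd against control.

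In simulated data for KO/Kd against control with 13382 genes, 16.8% of genes shifted by 0.25 on the log2 scale were called, 78% at 0.5, 98% at 1 and 100% at 2, and 5.18% of calls were false. Only a small share of genes was shifted there, whereas 46.2% were called higher and 19.3% lower in the data. The adjustment is more lenient with so many calls, so these percentages are not the sensitivity of the real comparison. The main fit did not pair samples by the replicate numbers of the titles. Deviations from group means had a median correlation of -0.01 over 30 pairs of arrays with the same number, 4 of them over 0.1. Over 60 pairs with different numbers the median was 0.01, with 2 over 0.1. These values cannot exclude a pairing.

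All members could be named. Single arrays are given for the 4 sterol, 3 fatty acid and 3 regulator genes with the widest span between group means, and for others a result turned on, and up to 4 called genes per neighbouring list and comparison were eligible. Members and lists were chosen with earlier results of these data known. Alternatives were quantile normalization, median centring, a pseudocount of 1, no filter or a filter at the 60th percentile, the mean of probe sets, probe sets other than _x_at and _s_at, arrayWeights, the replicate number as a block, trended and robust eBayes, a fit of the compared groups alone, and each array left out in turn.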

Additional observations from a re-analysis of the deposited data

Results flagged for a closer look

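The effect of deletion with tamoxifen was measured both in knockdown and in scrambled cells, and the difference between these effects was tested for each member as an interaction in limma. It passed an adjusted p of 0.05 for 17 of the 30 measured members, which are therefore listed here as effects that differ between groups. Values are log2 differences, the effect in knockdown cells minus that in scrambled cells. Of all genes 17.2% were negative and 25.8% positive at that threshold, and the same control, KO, Kd and KO/Kd arrays enter each value.

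In the sterol arm the difference was -2.47 for Lss, -1.63 for Idi1, -1.37 for Fdft1 and -1.19 for Nsdhl. It was -0.99 for Fdps, -0.96 for Sc5d, -0.82 for Msmo1 and -0.79 for Cyp51. It was -0.63 for Hmgcs1, -0.54 for Tm7sf2, -0.52 for Sqle and -0.46 for Mvd. In the fatty acid arm it was 2.05 for Acss2 and 0.33 for Scd1 (adjusted p = 0.0439). Among the regulators it was -1.63 for Stard4, -0.64 for Insig1 and 0.83 for Scap. The value for Sc5d was -0.21 with the mean of its probe sets, and for Scd1 the sign turned. The value for Lss is that of its chosen probe set. A second one had closer KO/Kd and Kd means, 213.5 and 268.6.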

How the results depend on the processing

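Each comparison was recomputed under 26 alternatives, 15 of which left out 1 array. All 26 calls of members in KO/Kd against +/+ held in each of them, as did 23 of 25 in KO/Kd against KO, 21 of 26 in KO/Kd against control, 15 of 24 in KO/Kd against Kd, 14 of 17 interactions, 13 of 22 in +/+ against control, 9 of 15 in KO against control, 4 of 10 in Kd against control and 3 of 10 in KO against +/+. With quantile normalization Tm7sf2 was at -0.032 and Acly at -0.0077 in KO/Kd against control, and without _x_at and _s_at probe sets Acly was at -0.0071. With the mean of probe sets Sc5d was at 0.087 in KO/Kd against control, 0.36 in KO/Kd against Kd and 0.0099 in KO against +/+, and Scd1 at -0.043 in KO/Kd against control and -0.20 in the interaction. For the sterol arm, quantile normalization and median centring gave 13 and 10 lower enzymes in Kd against control, 0 and 0 higher in KO/Kd against control, 0 and 0 higher in KO/Kd against Kd, and 1 and 1 lower in +/+ against control; arrayWeights gave 11 lower in Kd against control and 1 higher and 1 lower in KO against +/+, and only the compared groups gave 11 lower in Kd against control. For the fatty acid arm, both scalings gave 5 lower in KO against +/+, 4 lower in Kd against control, 5 lower in KO/Kd against +/+, 2 lower in KO/Kd against Kd and 1 negative interaction, and quantile normalization 2 higher in KO against +/+ and 3 higher in +/+ against control. A pseudocount of 1, arrayWeights, the mean of probe sets and the replicate block each gave 1 positive interaction; the filter at the 60th percentile, the mean of probe sets and trended, robust eBayes each gave 1 negative interaction. KO/Kd against KO had 2 higher without a filter, 3 with the 60th percentile filter, 3 with trended, robust eBayes, and 4 lower with the mean of probe sets. The mean of probe sets gave 0 lower in Kd against control; arrayWeights gave 4 lower there and, in KO against +/+, 0 higher and 1 lower, where trended, robust eBayes gave 5 lower. The causes were not tested. With 1 array left out, sterol counts ran from 8 to 13 higher in KO against control, 2 to 3 higher and 1 to 4 lower in KO against +/+, 4 to 10 lower in Kd against control, 0 to 1 higher and 13 to 14 lower in KO/Kd against control, 17 to 17 lower against +/+, 16 to 17 lower against KO, 1 to 2 higher and 10 to 13 lower against Kd, 9 to 14 higher in +/+ against control and 12 to 16 negative interactions. Fatty acid counts ran from 0 to 2 higher and 2 to 5 lower in KO against +/+, 0 to 2 lower in Kd against control, 1 to 3 higher in KO/Kd against KO, 0 to 1 lower in KO/Kd against Kd, 3 to 6 higher in +/+ against control, and 1 to 2 positive and 0 to 1 negative interactions. The replicate number as a block made 1 positive interaction in the fatty acid arm and moved no other count of the arms by over 1.5 times, with 14 lower sterol enzymes in KO/Kd against control and 17 against +/+. arrayWeights stopped before it converged. Low signal limits Apoe, which lies below the 40th percentile of every array outside KO/Kd cells.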
